A study of Mus musculus with 5 samples.

Results

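Replication-dependent histone genes encode the H1, H2A, H2B, H3 and H4 proteins that package newly made DNA. They were taken here as the gene entries whose symbol starts with Hist1h, Hist2h, Hist3h or Hist4h and whose FPKM (fragments per kilobase of transcript, relative to all mapped fragments) was above 0 in at least 1 library. Of 38130 entries, 70 carried such a symbol and 66 met the rule, 5 for H1, 18 for H2A, 18 for H2B, 12 for H3 and 13 for H4. Hist1h1t, Hist1h2aa, Hist1h2al and Hist1h2ba were listed at 0 in every library. Of the 66 entries, 63 are protein coding in GENCODE M21, Hist1h2aj and Hist3h2bb-ps are pseudogenes, and the locus of Hist2h2bb is annotated there as a lincRNA.

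These genes are transcribed mainly in S phase, when DNA is copied and nucleosomes are needed on both daughter strands. Their mRNAs are unusual among animal mRNAs in ending at a short RNA hairpin, the histone stem-loop, instead of a poly(A) tail. The stem-loop binding protein Slbp and the U7 small nuclear ribonucleoprotein direct that cut, and the hairpin later controls decay of the mRNA when DNA synthesis stops. A number of histone genes can also use a poly(A) signal further downstream, which gives longer, polyadenylated transcripts in cells that divide little. Regulatory T (Treg) cells are CD4 T cells that need the transcription factor Foxp3 and hold immune responses back, and a share of them divides at any time.

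The libraries were total RNA of CD4+YFP+ Treg cells sorted from C57BL/6 mice, in which a Foxp3-driven Cre with a yellow fluorescent protein marks these cells in every group. There were 5 libraries. Reporter mice with wild-type Malt1 (WT) gave 1 library at 21 days of age and 1 at 6 weeks. Foxp3Cre-YFP/malt1fl/fl mice, in which Cre deletes Malt1 in Treg cells (KO), gave 1 library at 21 days. Foxp3Cre-YFP/malt1fl/C472A mice at 6 weeks, with a floxed allele beside an allele that carries the C472A change and Treg protease activity of Malt1 described as inhibited (KI), gave 2 libraries. Malt1 encodes a paracaspase that carries antigen receptor signals to NF-kB. The labels do not say whether the KI libraries came from separate mice, so their spread may be technical.

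FPKM were divided by a factor per library, and the result is called scaled FPKM. The depth, estimated from the deposited bounds, was 27.1 to 31.7 M fragments (M for mega) in 21-day WT and in KI, and 7.41 and 8.33 M in 6-week WT and KO. Each comparison of equal age therefore ran between a deeper and a shallower library, and the library sets also differed in the length that FPKM subtracts from a transcript, estimated at 196 to 209 nt in the deeper libraries and 82.7 and 98.7 nt in the shallower. Targeted Malt1 had a scaled FPKM of 27.0 in 21-day WT, 15.2 in 6-week WT, 17.6 in the library labelled KO, and 55.9 and 37.8 in KI, so its level did not set KO apart from WT. The 7 Treg markers, Foxp3, Il2ra, Ctla4, Ikzf2, Cd4, Cd3e and Tnfrsf18, were present in every library with summed scaled FPKM of 780 to 1073. Against 21-day WT, 3 of the 7 were more than 2-fold lower in KO, where 8.14% of all genes were. They were Foxp3 at 70.7 and 30.5, Ctla4 at 396 and 118, and Ikzf2 at 68.0 and 15.4 (21-day WT and KO). Cd4 was at 165 and 213 in the same pair, and Cd3e at 181 and 224. In 6-week WT, the other shallower library, Foxp3, Ctla4 and Ikzf2 were at 39.5, 148 and 36.3, and Cd4 and Cd3e at 197 and 253. The 5 B cell markers summed to 3.0 to 21.7 and the 5 myeloid markers to 4.2 to 86.6, with none at 0 and both sums highest in 6-week WT. The 3 erythroid markers found summed to 16.5 in 6-week WT against 0.055 to 4.72 in the others. The 5 thymocyte markers summed to 12.8 there against 5.02 to 8.31. The 3 plasma cell markers found were lowest there, at 34.8 against 43.8 to 69.4. The part of other cells or of the library sets in the values below was not tested.

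The stem-loop is the feature that sets these mRNAs apart, so its letters are shown first. A 16-base stem-loop was found in GENCODE M21 transcripts of 45 of the 66 genes. The sequences below are from these transcripts (GRCm38), 5′ to 3′ in DNA letters, with the hairpin in capitals and up to 5 flanking bases on each side in lower case. They show the commonest form and the forms that differ between histone classes.
Hist1h1c, chr13:23739512-23739527, plus strand: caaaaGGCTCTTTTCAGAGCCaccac
Hist3h2a, chr11:58955172-58955187, plus strand: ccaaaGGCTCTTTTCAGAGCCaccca
Hist1h2ap, chr13:21833029-21833044, minus strand: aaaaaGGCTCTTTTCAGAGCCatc
Hist2h2ac, chr3:96220418-96220433, minus strand: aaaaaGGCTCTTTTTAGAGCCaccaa
Hist1h3c, chr13:23745047-23745062, minus strand: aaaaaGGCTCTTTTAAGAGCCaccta
Hist1h4d, chr13:23581950-23581965, plus strand: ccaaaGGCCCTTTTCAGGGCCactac
Hist1h4i, chr13:22040966-22040981, minus strand: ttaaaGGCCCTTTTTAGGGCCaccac
Hist1h4b, chr13:23757366-23757381, plus strand: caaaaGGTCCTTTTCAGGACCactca

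The form printed for Hist1h1c was present in 26 genes, 3 for H1, 10 for H2A, 8 for H2B and 5 for H3, and in none for H4. Every H4 hairpin found had another stem, and 7 H4 genes shared the form printed for Hist1h4d. The form printed for Hist1h4i was found in 2 H4 genes, and that of Hist1h4b in 2 others. The form of Hist1h3c was found in 5 genes, 2 for H2B and 3 for H3. In 18 genes the gene model of the files ran more than 100 nt past the hairpin, for example by 839 nt in Hist1h1c, 1487 nt in Hist3h2a, 168 nt in Hist3h2ba and 150 nt in Hist1h4i. In 27 genes it ended within 100 nt of the hairpin, in some of them before the hairpin's end. It stopped short of that end by 43 nt in Hist1h2bm, 28 nt in Hist1h2ap and 16 nt in each of Hist1h2bb and Hist1h2bk. In Hist1h4a it was 2 nt short and in Hist2h2aa2 1 nt. No hairpin was found in the transcripts of 21 genes, among them Hist2h2be and Hist1h2bc, which says only that the letters searched are not in these models.

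The genes lie close together, 52 of them on chromosome 13 in blocks of 24 (21715763 to 22043676) and 28 (23531044 to 23764414), 10 on chromosome 3, 3 on chromosome 11 and Hist4h4 on chromosome 6 (GRCm38). Many H2A and H2B genes start back to back: 12 such pairs had 167 to 268 bases between their starts. The promoter of Hist1h2ag is shown because it reaches across most of the 264 bases to its partner Hist1h2bj, and these neighbours had different patterns across the libraries. It is the RefSeq window of 250 bases before to 50 after the start (GRCm38.p6, chr13:22042900-22043199, minus strand), 5′ to 3′, with CCAAT and its reverse ATTGG in capitals.
Hist1h2ag promoter: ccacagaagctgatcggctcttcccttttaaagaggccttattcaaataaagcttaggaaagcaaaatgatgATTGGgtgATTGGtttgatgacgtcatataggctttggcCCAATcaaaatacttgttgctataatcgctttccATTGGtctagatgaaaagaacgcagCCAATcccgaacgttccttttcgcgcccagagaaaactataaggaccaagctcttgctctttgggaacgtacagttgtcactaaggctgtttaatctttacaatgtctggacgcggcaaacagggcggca

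The promoter of Hist3h2a, the H2A gene with the most fragments, holds an octamer, the motif ATTTGCAT that POU factors bind, read here as ATGCAAAT on the printed strand (GRCm38.p6, chr11:58954435-58954734, plus strand, with octamer and CCAAT motifs in capitals).
Hist3h2a promoter: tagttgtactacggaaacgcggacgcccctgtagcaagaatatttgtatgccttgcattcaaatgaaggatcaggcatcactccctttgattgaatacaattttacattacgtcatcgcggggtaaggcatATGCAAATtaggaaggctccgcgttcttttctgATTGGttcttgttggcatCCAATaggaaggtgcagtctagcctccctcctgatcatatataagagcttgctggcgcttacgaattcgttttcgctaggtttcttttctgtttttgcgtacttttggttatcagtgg

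RefSeq promoters were matched for 59 of the 66 genes, and motifs were searched as letters on both strands. CCAAT was in 84.7% of them and in 37.9% of the 27025 RefSeq promoters. All matched H1, H2A, H2B and H3 promoters held it (5, 17, 15 and 10), against 3 of 12 for H4. ATTTGCAT was in 18.6% against 1.75% of all promoters, in 6 of 17 for H2A, 5 of 15 for H2B and none of the others. TATAAA was in 55.9% against 14.2%. These matches describe the letters and do not show binding.

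Histone genes were a low-level family in these libraries. The median over the 66 genes of the mean scaled FPKM was 0.595, and only 22 of them reached a mean of at least 1. Over these 22 the median was 1.85, against 9.54 over the 11296 genes with a mean of at least 1. Just inside the limit lay Hist1h2bj (1.09) and Hist1h2bh (1.10), and just outside it Hist1h2bb (0.953) and Hist2h2aa2 (0.936). The number of genes above 0 was 56 in 21-day WT, 54 in 6-week WT, 60 in KO, and 47 and 61 in KI, and 39 were above 0 in all 5 libraries. In all, 3661 fragments were estimated to lie behind the values, 1133 in 21-day WT, 467 in 6-week WT, 474 in KO, and 685 and 902 in KI. Hist1h1c, Hist3h2a, Hist2h2be, Hist1h2ap, Hist3h2ba and Hist1h4i held 60.2% of them, while 19 genes had fewer than 10 in all libraries together.

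Per M estimated fragments, the histone genes had 35.7 in 21-day WT (95% Poisson interval 33.7 to 37.9), 62.9 in 6-week WT (57.4 to 69.0), 56.9 in KO (51.9 to 62.3), and 24.9 (23.0 to 26.8) and 33.3 (31.2 to 35.6) in KI. The intervals cover counting error only. The shallower libraries, 6-week WT and KO, had the higher shares, and the KI libraries did not overlap each other. The libraries of 6-week WT and KO also stood apart in other RNAs. Metazoa_SRP, a small RNA without a poly(A) tail, was at 208 and 221 in them against 3.25 to 4.82 in the others, and 7SK, another, at 19.6 and 18.4 against 42.1 to 80.2. For both, the entry with the highest mean was taken, and FPKM of such short RNAs depends on the subtracted length. Of the 7 such RNAs found, U2 was at 0 in 6-week WT and KO against 441 to 724. The others did not split this way. U1 was at 7.77 and 11.1 against 0 to 40.9, U4 was above 0 only in 6-week WT, U6 only in KO, and U5 nowhere. Summed mitochondrial mRNA was 13800 and 12291 in 6-week WT and KO against 16633 to 38116. The part of these differences between libraries in the histone values was not tested. The summed scaled FPKM, which weighs short genes more, was 81.8, 105 and 100.3 in 21-day WT, 6-week WT and KO, and 60.9 and 83.2 in KI. In bulk RNA, fewer cells in S phase and less histone mRNA per cell cannot be told apart.

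**Figure D1:**
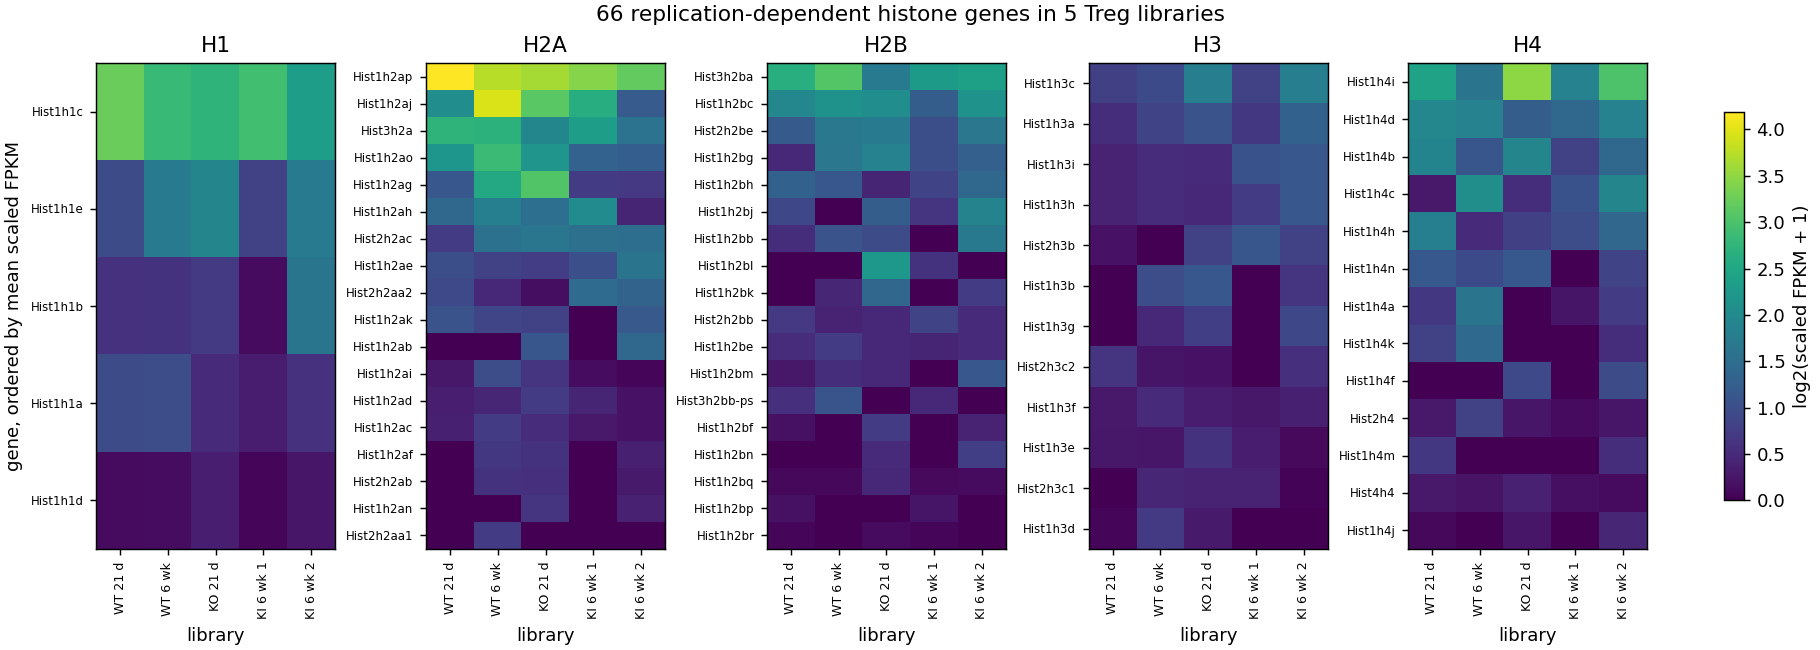
Level of each of the 66 histone genes in each library as log2(scaled FPKM + 1), by class, with genes in rows ordered by their mean and the 5 libraries in columns. A few rows at the top of each class carry most of the signal, and 39 of the 66 genes are above 0 in all 5 libraries.

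Among the linker histones, Hist1h1c (ENSMUSG00000036181, chr13:23738807-23740366, plus strand) was the main gene, with 745 of the 945 fragments of its class. Its scaled FPKM was 8.37 in 21-day WT, 6.15 in 6-week WT, 5.60 in KO, and 6.58 and 4.02 in KI, and the highest and lowest of these had deposited bounds that did not overlap. Hist1h1e ran in another order, with 0.934 in 21-day WT, 2.28 in 6-week WT, 2.76 in KO, and 0.768 and 2.27 in KI. It was low in 21-day WT and KI replicate 1 and at 2.27 or more in the other libraries. Hist1h1b was at 0.092 in KI replicate 1 and 2.08 in KI replicate 2, from 1 and 25 fragments, and at 0.521, 0.534 and 0.639 in 21-day WT, 6-week WT and KO. Hist1h1a ranged from 0.252 to 0.982 and Hist1h1d from 0.048 to 0.269.

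H2A genes carried the largest summed scaled FPKM of any class in each library, 37.0 in 21-day WT, 53.7 in 6-week WT, 42.6 in KO, and 29.6 and 23.4 in KI. Hist1h2ap had the highest mean of all histone genes per length, although Hist1h2aj was above it in 6-week WT, and was at 17.3 in 21-day WT, 12.4 in 6-week WT, 11.4 in KO, and 9.81 and 8.14 in KI. It shares 93.1% of its 50-base words with transcripts of other genes, so reads of near-identical H2A copies cannot be separated with certainty. Hist3h2a, an H2A gene on chromosome 11 that overlaps Trim17, was at 5.65 in 21-day WT, 5.45 in 6-week WT, 2.78 in KO, and 4.02 and 2.03 in KI. Its WT libraries were close to each other, and KO and KI replicate 2 were the lowest.

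The next H2A genes were high in 6-week WT. Hist1h2aj, a pseudogene that overlaps Hist1h2bm and shares 93.1% of its 50-base words, was at 14.5 in 6-week WT against 3.14 in 21-day WT, 7.71 in KO, and 5.14 and 1.31 in KI. Hist1h2ao was at 6.21 in 6-week WT, 3.61 in 21-day WT, 3.54 in KO, and 1.498 and 1.38 in KI, and shares 93.5% of its words. Hist1h2ag was at 1.21 in 21-day WT, 4.79 in 6-week WT, 7.28 in KO, and 0.673 and 0.623 in KI, from 7.0, 9.6, 17, 3.0 and 3.0 fragments. The shallower libraries were the high ones for Hist1h2ag, which shares 78.9% of its words. Of the 66 histone genes 32 share more than 50% of their 50-base words with another gene, 7 of them among the 22 with a mean of at least 1.

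H2B was led per length by Hist3h2ba, the neighbour of Hist3h2a on chromosome 11, at 5.23 in 21-day WT, 7.43 in 6-week WT, 2.34 in KO, and 3.87 and 4.22 in KI. KO was lowest for this gene. Hist2h2be (chr3:96221121-96223738, plus strand), which has the longest model of the 6 genes with most fragments and shares 0% of its 50-base words, had the most fragments of the class, 343. Its scaled FPKM was 1.27 in 21-day WT, 2.198 in 6-week WT, 2.26 in KO, and 1.01 and 2.18 in KI. Here KI replicate 1 and 21-day WT were low, as for Hist1h1e. Hist1h2bc was at 2.82, 3.43 and 3.14 in 21-day WT, 6-week WT and KO and at 1.37 and 3.47 in KI, so only KI replicate 1 stood below the others. Hist1h2bg was at 0.404 in 21-day WT, 2.17 in 6-week WT, 2.61 in KO, and 1.005 and 1.43 in KI.

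H3 had the fewest fragments, 183 over 12 genes, and summed scaled FPKM of 3.03 in 21-day WT, 5.82 in 6-week WT, 8.57 in KO, and 5.05 and 9.38 in KI. Hist1h3c, the highest, was at 2.48 in KO and 2.46 in KI replicate 2, and at 0.726, 0.925 and 0.765 in 21-day WT, 6-week WT and KI replicate 1. Hist1h3a had the same high libraries, 1.10 in KO and 1.47 in KI replicate 2, against 0.467 to 0.810 in the others. Hist1h3i and Hist1h3h were highest in KI replicate 2 at 1.19 each, from 6 fragments.

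H4 was carried by Hist1h4i (ENSMUSG00000060639, chr13:22040816-22041352, minus strand), at 4.30 in 21-day WT, 2.06 in 6-week WT, 10.2 in KO, and 2.63 and 7.10 in KI. KO and KI replicate 2 were high, as for Hist1h3c, and the bounds of KO did not overlap those of either WT library. Hist1h4d was at 2.84 and 2.61 in the WT libraries, 1.35 in KO, and 1.68 and 2.62 in KI. Hist1h4b was at 2.71 in 21-day WT, 1.17 in 6-week WT, 2.74 in KO, and 0.745 and 1.66 in KI, and overlaps 4930558J22Rik. Hist1h4c was at 3.20 in 6-week WT and 2.74 in KI replicate 2, and at 0.213 in 21-day WT from 1 fragment.

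**Figure D2:**
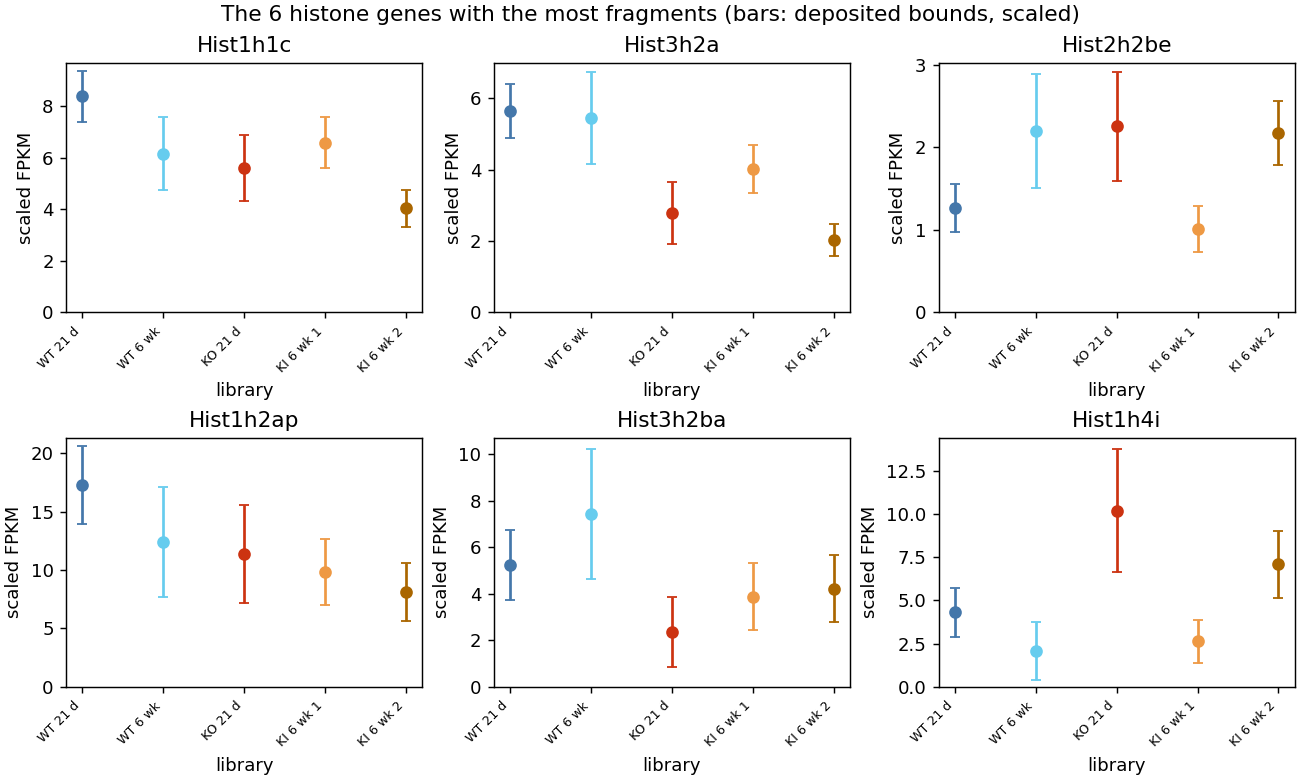
Scaled FPKM of the 6 histone genes with the most fragments in the 5 libraries; points are values and bars the deposited lower and upper bounds, which cover error within a library only. Hist1h1c, Hist3h2a and Hist1h2ap are lowest in KI replicate 2, while Hist2h2be and Hist1h4i are higher in KI replicate 2 than in KI replicate 1.

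**Figure D3:**
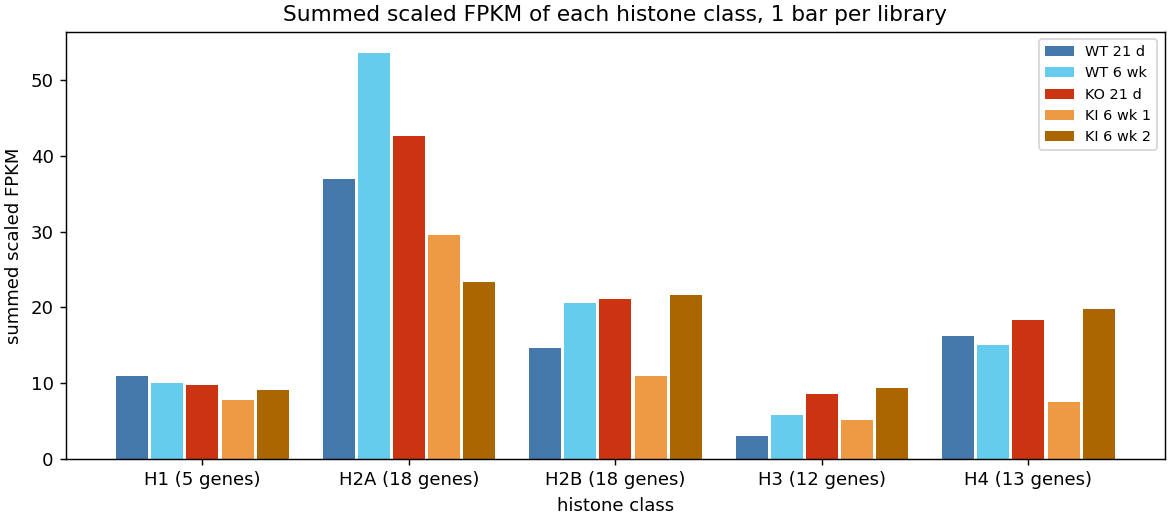
Summed scaled FPKM of each histone class on the vertical axis, with 1 bar per library and the number of genes of each class below. H2A has the highest sum in each library, from 23.4 to 53.7, and H3 the lowest, from 3.03 to 8.57, in all but KI replicate 2, where H1 is lowest at 9.07.

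In KI, whose Malt1 protease activity is described as inhibited, 17 of the 22 histone genes with a mean of at least 1 were lower than in 6-week WT and 5 were higher. The median log2 difference was -0.39, against -0.00 over all 11296 genes. The lowest were H2A genes: Hist1h2aj at -2.04, Hist1h2ag at -1.81 and Hist1h2ao at -1.56, followed by Hist3h2ba at -0.74 and Hist3h2a at -0.72. The highest were Hist1h2bj at 1.25, Hist1h4i at 0.82, Hist1h4h at 0.69, Hist1h2ae at 0.50 and Hist1h3c at 0.36. Of these, Hist1h2bj and Hist1h2ae reached a mean of at least 1 only through KI replicate 2 (2.66 and 2.06).

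None of these differences passed the test. The limma fit with Benjamini-Hochberg adjustment called 0 of the 22 histone genes, where it called 0.00885% of all genes. At an unadjusted p under 0.05 it had 2, against 10.7% of all genes, which were Hist1h2ag (SE 0.24, adjusted p = 0.308) and Hist1h2ao (SE 0.28, adjusted p = 0.381). By size, Hist1h2ag, Hist1h2aj and Hist1h2ao were more than 2-fold lower in both KI libraries, 3 of 22 against 2.80% of all genes, and 0 were higher against 3.01%. These H2A genes share 78.9%, 93.1% and 93.5% of their 50-base words with other genes. Reads of such copies cannot be separated with certainty, so the 3 may not be separate observations. Deposited bounds were apart, lower in both KI libraries, for 2 of 22, Hist1h2ag and Hist1h2ao, against 13.0% of all genes, and higher for 0, against 16.0%. Against 21-day WT, which has the depth of the KI libraries, 0 of 22 were past 2-fold, where 1.19% of all genes were, and the median was -0.18. In that setting Hist1h2ao stood at -0.92, Hist1h2ag at -0.42 and Hist1h2aj at -0.14. With a pseudocount of 0.1, 5 of 22 were past 2-fold against 9.34% of all genes, and with 1 KI library left out 4 against 13.2% (without replicate 2) or 7 against 11.2% (without replicate 1).

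The KI means with their spread were 0.648 ± 0.036 (SD, n = 2) for Hist1h2ag and 1.44 ± 0.087 for Hist1h2ao, both below the WT libraries. Hist1h2aj had 3.23 ± 2.71 and Hist1h4i 4.86 ± 3.15, where the KI libraries themselves differed more than 2-fold. For Hist1h2bj, KI had 0.551 and 2.66 and 6-week WT was listed at 0, while 21-day WT had 0.874. Over all 66 genes the median was -0.10, with 26 higher and 40 lower, and by class 14 of 18 H2A genes were lower against 9 of 18 for H2B, 6 of 12 for H3 and 8 of 13 for H4.

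In the library labelled KO, a set of histone genes was higher than in 21-day WT. More than 2-fold higher were 5 of 22, where 6.13% of all genes were: Hist1h2ag at 1.91, Hist1h2bg at 1.36, Hist1h4i at 1.08, Hist1h2aj at 1.07 and Hist1h3c at 1.01 (log2). Hist1h4h was the 1 gene more than 2-fold lower, at -1.02, against 8.14% of all genes, and Hist3h2ba at -0.90, Hist1h2bh at -0.86, Hist3h2a at -0.81 and Hist1h4d at -0.71 followed. Hist1h4h reached a mean of at least 1 only through its value of 2.51 in 21-day WT, the control here. Its place among the 22 therefore rests on the library in which it was high. The median was 0.11, with 13 genes higher and 9 lower, so the genes did not move as 1 group. Bounds were apart for 7 of 22, against 51.7% of all genes, with Hist1h1e, Hist1h2ag, Hist1h2bg, Hist1h4i and Hist2h2be higher and Hist1h1c and Hist3h2a lower.

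Each side of this comparison is 1 library, so there is no replicate check and no p-value. Against 6-week WT, which has the depth of the KO library, the same KO values gave 2 genes more than 2-fold higher, Hist1h2bj at 1.24 and Hist1h4i at 1.87, where 3.30% of all genes were. In that setting 2 were lower, Hist1h4c at -1.53 and Hist3h2ba at -1.33, where 2.29% were, and the median was -0.09. Hist1h4i was thus more than 2-fold higher in KO than in either WT library, and Hist3h2a was lower than both at -0.81 and -0.77. Hist1h2aj and Hist1h4h changed direction, to -0.83 and 0.29. Over all 66 genes against 21-day WT, 43 were higher and 23 lower, and H3 had 11 of 12 higher, with a median of 0.38 from 30.4 fragments over the whole class in 21-day WT and 32.3 in KO. With a pseudocount of 0.1, 11 of 22 were past 2-fold against 19.9% of all genes. With FPKM as deposited 7 were higher against 13.4% and 0 lower against 4.36%, and the median was 0.36, where that of all genes was 0.35.

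Between the WT ages, Hist1h2aj (1.91), Hist1h4c (1.79), Hist1h2ag (1.39) and Hist1h2bg (1.17) were more than 2-fold higher at 6 weeks than at 21 days, 4 of 22 against 3.38% of all genes. Hist1h4h was lower, at -1.31, 1 of 22 against 5.18%, from a scaled FPKM of 2.51 at 21 days and 0.413 at 6 weeks that rest on 16 and 1 fragments. Only through that 21-day value did Hist1h4h reach a mean of at least 1. Hist1h2bj at -0.91, Hist1h4i at -0.79, Hist1h4b at -0.77 and Hist1h2ap at -0.44 were the next lowest, and Hist2h2ac at 0.82 the next highest. The median was 0.19, with 12 higher and 10 lower. Bounds were apart for 3 of 22, Hist1h2aj, Hist1h2bj and Hist1h4h, against 41.7% of all genes. With a pseudocount of 0.1, 10 of 22 were past 2-fold against 13.3% of all genes, and with FPKM as deposited the median was 0.42, where that of all genes was 0.35. The WT library at 21 days is also the control of KO, and that at 6 weeks the control of KI, so these comparisons share libraries.

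**Figure D4:**
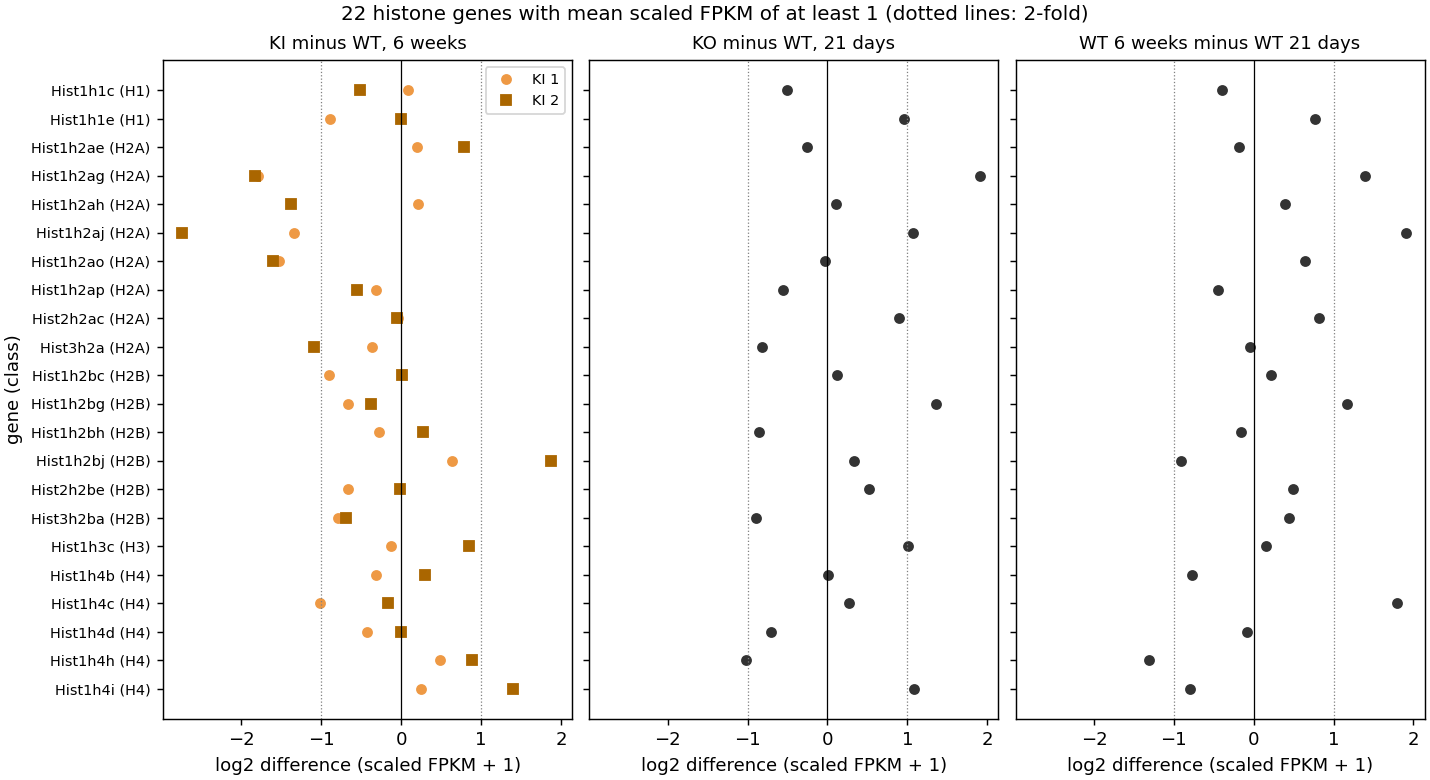
Log2 difference in scaled FPKM + 1 (horizontal axis) of the 22 histone genes with a mean of at least 1, for KI against 6-week WT with each KI library shown, KO against 21-day WT, and 6-week WT against 21 days. Hist1h2ag lies at -1.79 and -1.83 in the KI libraries, at 1.91 in KO and at 1.39 between the WT ages, and dotted lines mark 2-fold.

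The KI libraries, which share genotype and age, differed from each other in the same family. Over the 66 genes, 44 were higher and 21 lower in KI replicate 2 than in replicate 1, with a median of 0.33, and the 22 genes with a mean of at least 1 had a median of 0.41, against 0.00 over all genes tested. H4 had 12 of 13 higher, H2B 13 of 18, H3 8 of 12, H1 4 of 5 and H2A 7 of 18. Of the 22 genes, Hist1h2bj and Hist1h4i were more than 2-fold higher, 2 of 22 against 2.44% of all genes, and Hist1h2ah and Hist1h2aj lower, against 4.14%. Hist1h2bj is among the 22 only through its value in KI replicate 2. Of the genes with a mean below 1, Hist1h2bb was listed at 0 in replicate 1 and was at 2.22 in replicate 2, from 13 fragments, and Hist1h1b had the values given above. Bounds were apart for 5 of 22 upward, against 24.3% of all genes, and for 3 downward, Hist1h1c, Hist1h2ah and Hist3h2a, against 23.4%.

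In the same pair the values are given by the 3′ end of the gene model, as a description with no test. Of the 27 genes that end within 100 nt of it, 21 were higher in KI replicate 2, with a median of 0.61, and of the 18 that run on for more than 100 nt, 10 were higher, with a median of 0.09. The summed scaled FPKM of the 27 was 24.2 in KI replicate 1 and 43.3 in replicate 2, against 39.9 in 21-day WT, 45.7 in 6-week WT and 47.3 in KO. Without Hist1h2ap, which carries much of that sum, it was 14.4 and 35.1 in KI, against 22.6, 33.3 and 35.9. The sum of the 18 genes with long 3′ ends was 20.9 and 23.1 in KI and 27.5, 28.2 and 27.5 in 21-day WT, 6-week WT and KO, a narrower range.

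By fragments the order was the reverse. The 18 genes with long 3′ ends held 54.9% of all histone fragments, the 27 that end near the hairpin 23.8%, and the 21 without one 21.4%. Per length, the median of the mean scaled FPKM was 0.282 for the 18, 0.936 for the 27 and 0.586 for the 21. The median model length, over those genes that could be given a length, was 1018 nt among the 18 and 477.5 nt among the 27. Length and 3′ end therefore cannot be told apart here. Whether the libraries were made with poly(A) selection is not given in the sources used here.

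Genes of DNA replication and division also differed between the KI libraries. The 22 S phase genes found in the files, such as the replicative helicase subunits Mcm2 to Mcm7 and the ribonucleotide reductase subunit Rrm2, had summed scaled FPKM of 354 in 21-day WT, 439 in 6-week WT, 501 in KO, and 340 and 571 in KI. All 22 were higher in KI replicate 2 than in replicate 1, with a median of 0.91 and 9 past 2-fold. The 15 genes of G2 and mitosis, such as the proliferation marker Mki67 and the topoisomerase Top2a, summed to 111, 145 and 275 in 21-day WT, 6-week WT and KO and to 134 and 399 in KI. In that list 15 of 15 were higher in KI replicate 2, with 14 past 2-fold, where 2.44% of all genes were.

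Mki67 was at 13.7 in 21-day WT, 16.1 in 6-week WT, 25.3 in KO, and 15.9 and 49.9 in KI, so KO and KI replicate 2 were the high libraries, as for Hist1h4i and Hist1h3c. In KO against 21-day WT, 20 of 22 S phase genes were higher, 4 of them past 2-fold, and 15 of 15 of G2 and mitosis, 8 past 2-fold, where 6.13% of all genes were. Against 6-week WT, which has the depth of the KO library, 19 of 22 and 15 of 15 were higher in KO. Of these, 1 and 3 were past 2-fold, where 3.30% of all genes were. In KI against 6-week WT, 0 of 22 and 0 of 15 were past 2-fold in both libraries, where 3.01% of all genes were higher and 2.80% lower. On average over the KI pair, 14 of the 22 and 15 of the 15 were higher in KI, but the pair was split. The sums of KI replicate 1 (340 and 134) lay below those of 6-week WT (439 and 145). Those of KI replicate 2 (571 and 399) lay above. Hist1h1c, Hist3h2a and Hist1h2ap did not follow that order: they were highest in 21-day WT, where the mitosis sum was lowest. The part of cell division in the histone values was not tested.

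**Figure D5:**
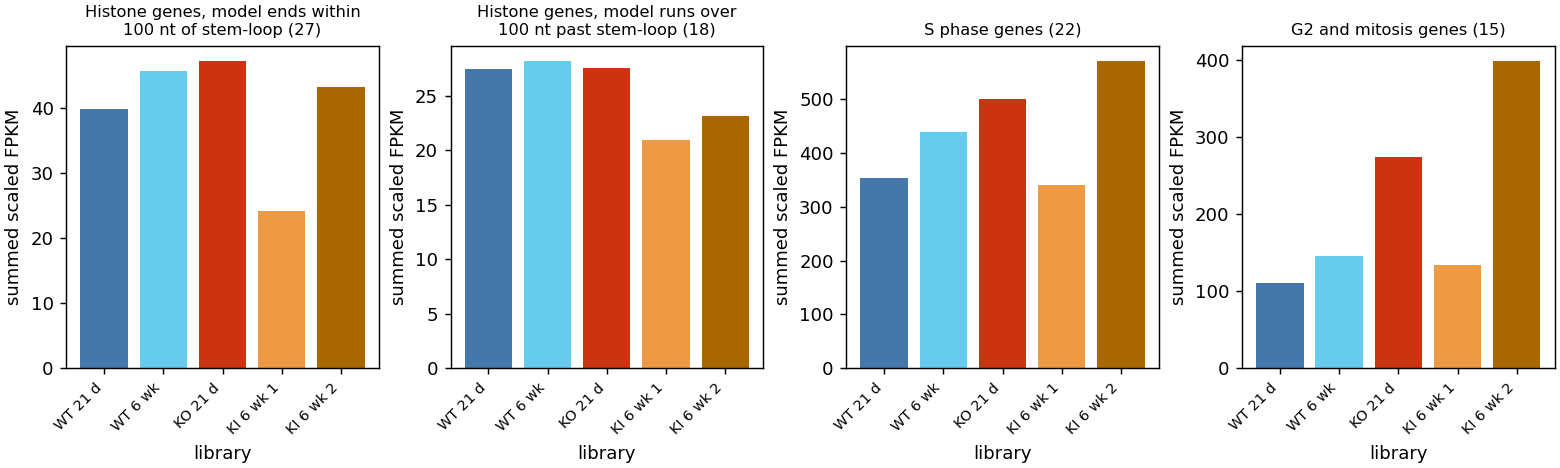
Summed scaled FPKM by library of the 27 histone genes whose model ends within 100 nt of the stem-loop, the 18 that run further, 22 S phase genes and 15 genes of G2 and mitosis. KI replicate 1 is lowest among the 27 at 24.2 and KI replicate 2 is highest in both division lists, at 571 and 399, while the 18 range from 20.9 to 28.2.

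Levels of neighbours that share a promoter region were close in some pairs and far apart in others. Hist1h2bj, which starts 264 bases from Hist1h2ag, was at 0.874 in 21-day WT, listed at 0 in 6-week WT, at 1.36 in KO, and at 0.551 and 2.66 in KI. It was highest in KI replicate 2, where Hist1h2ag was lowest at 0.623. Hist2h2ac, whose start lies 240 bases from that of Hist2h2be, was at 0.684 in 21-day WT, 1.98 in 6-week WT, 2.13 in KO, and 1.91 and 1.87 in KI, and its mean was 0.961 of that of its partner. Hist1h2ac had a mean 0.124 of that of its partner Hist1h2bc. Hist3h2bb-ps, a pseudogene 172 bases from Hist3h2a, had 0.101 of the mean of that gene.

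Genes listed here as replication-independent histone genes had far higher summed scaled FPKM. The 11 genes of that list, among them the H3.3 genes H3f3a and H3f3b and the H2A variant gene H2afz, summed to 1041 in 21-day WT, 1110 in 6-week WT, 1111 in KO, and 1014 and 1059 in KI. That range was narrower than that of the replication-dependent sum. Replication-dependent histone mRNAs mostly lack a poly(A) tail, and poly(A) selection is not stated. The gap between the sums therefore cannot be read as one in abundance. H3f3b alone was at 348, 357 and 292 in 21-day WT, 6-week WT and KO and at 324 and 267 in KI. In KI against 6-week WT 0 of the 10 tested were past 2-fold, with the shares of all genes at 3.01% higher and 2.80% lower. In KO against 21-day WT 5 were higher and 0 lower, with the shares at 6.13% and 8.14%. Against 6-week WT, KO had 1 higher and 0 lower past 2-fold, with the shares at 3.30% and 2.29%.

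Of the 13 tested genes for the machinery of histone mRNA 3′ ends, each KI library was more than 2-fold from 6-week WT in the same direction for 0, where 3.01% of all genes were higher and 2.80% lower. In KO against 21-day WT 0 were, where 6.13% and 8.14% were. Lsm10, a subunit of the U7 ribonucleoprotein, was at 7.08, 13.6 and 12.5 in 21-day WT, 6-week WT and KO and at 4.86 and 6.74 in KI. The mean log2 difference of KI was -1.11 from 6-week WT and -0.26 from 21-day WT, and the shallower libraries were the high ones. Slbp, the stem-loop binding protein, was at 35.3 in 21-day WT, 41.6 in 6-week WT, 44.7 in KO, and 45.6 and 45.3 in KI. Npat, a coactivator of histone gene transcription, was at 5.94, 4.10 and 3.81 in 21-day WT, 6-week WT and KO, and at 7.27 and 6.85 in KI, so the shallower libraries were the low ones. Of the 10 histone chaperone genes 0 were past 2-fold in KI and 1 in KO, counted against the same shares of all genes. That gene was Chaf1b, at 5.36 in 21-day WT, 10.4 in 6-week WT and 14.1 in KO. The chromatin assembly subunit Chaf1a, not past 2-fold in KO, was at 2.40, 4.25 and 5.26 in 21-day WT, 6-week WT and KO. In KI it was at 2.60 and 7.47.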

How the data were processed

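RNA sequencing of sorted Treg cells gave 5 libraries. Per the submitters' processing notes the tools were CASAVA, HISAT2 2.1.0 and Cufflinks 2.2.1 on GRCm38; the annotation, the strandedness and whether reads were paired are not given in the sources used. The authors deposited gene-level FPKM with a lower and an upper bound, per the file headers. FPKM were divided by median-of-ratios factors over the 9874 genes whose FPKM reached 1 in each library (0.868 to 1.15). Differences are on log2(scaled FPKM + 1), a scale that shrinks changes at low levels, and 2-fold refers to that scale. Genes with a mean of at least 1 (11296) were compared. Fragments behind a value, and from them depth, were estimated from the bounds, taken as 2 standard errors from the value.

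Two-sided limma (version 3.58.1 in R 4.3.3, with trend) was used for KI against 6-week WT, where the KI pair leaves 1 residual degree of freedom, with Benjamini-Hochberg adjustment over all genes and a threshold of 0.05. The same fit, run afterwards on simulated data with noise taken from the KI pair alone, recovered only part of the 2-fold changes. A count by size needed 2-fold in both KI libraries. Bounds were called apart where scaled bounds did not overlap. KO and WT ages have 1 library a side and no test. Of the 66 genes, 57 matched GENCODE M21 by ID and 9 by symbol and position. Named were the 4 highest genes of each class and the 5 highest and 5 lowest differences of each comparison; other genes named were chosen after their values were seen. The members, lists and rule were chosen with earlier results of these data known. Alternatives were the pseudocount, scaling, filter, length correction, the other WT control and leaving out a KI library; fragments per M and kilobase, and leaving out the pseudogenes, were added after seeing the data.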

Additional observations from a re-analysis of the deposited data

How the results depend on the processing

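With a pseudocount of 0.1 the number of histone genes past 2-fold was 5 in KI, 11 in KO and 10 between the WT ages, in place of 3, 6 and 5, while the share of all genes was 9.34%, 19.9% and 13.3% in place of 5.81%, 14.3% and 8.56%. Without the filter on low values it was 10 of 66 in KO, against 9.41% of all genes, and the KI median was -0.10. With FPKM as deposited the KO median was 0.36 and that of the WT ages 0.42. Between the WT ages, rescaling to the full transcript length and counting fragments per M and kilobase each gave 3 genes past 2-fold of the 18 with a length, where the uncorrected count over these 18 was 4. Against 21-day WT KI had 0 genes past 2-fold, and against 6-week WT the KO median was -0.09. Under the latter control Hist1h2aj turned to -0.83 and Hist1h4h to 0.29. Leaving out 1 KI library gave 4 to 7 genes past 2-fold in KI, 7 without replicate 1 and 4 without replicate 2, with medians of -0.34 to -0.033. Limma called 0 histone genes under each of the 5 settings run, and leaving out a KI library leaves it no residual degree of freedom, so that was not run. The causes were not tested. No paired analysis was possible because only KI had 2 libraries. Of the 30 named differences none changed sign with the pseudocount of 0.1 or as deposited, while in KI Hist1h3c turned to -0.12 without replicate 2 and Hist1h4h to -0.63 against 21-day WT. Low fragment numbers limit most values: the median per histone gene was 3.0 to 5.5 in a library.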
